A study of Mus musculus with 12 samples.

Results

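The genes described here encode RNA polymerase II (Pol II), its general initiation factors and the factors that hold it near the promoter or release it into the gene body. The list held 55 genes, named by symbol, out of 53465 genes in the count table. All 55 were found in the GENCODE M21 annotation. Expression was measured by RNA-seq in livers of C57BL/6N mice, whose age was 3 months in the young group, 12 months in the middle-aged group and 18 months in the aged group. Each group held 4 libraries, each treated here as a different animal. No treatment or engineered allele is named in the labels of any group, and the study's husbandry section describes male mice. The extraction protocol in the labels covers young and old livers and does not describe the middle-aged ones.

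Pol II cannot find a promoter by itself. TFIID, made of the TATA-binding protein and its associated factors (TAFs), marks the start site, TFIIA and TFIIB stabilise it there, TFIIF brings the polymerase, and TFIIE and TFIIH open the DNA. Soon after initiation the polymerase halts under the hold of DSIF (Supt4a with Supt5) and NELF, and the kinase P-TEFb (Cdk9 with a cyclin T) releases it, while the 7SK particle, which contains Larp7 and Hexim1, keeps P-TEFb inactive. The comparison between ages asked whether the mRNA of this machinery differed between young, middle-aged and aged livers, a question that belongs to the study's interest in promoter-proximal pausing in the ageing liver.

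In total, 5 of the 55 genes differed with age in at least one test, and all 5 passed the test across the 3 ages, which 6.96% of all genes tested also passed, so the count was near the background. Hexim1, the P-TEFb inhibitor, was higher in aged than in young livers. Gtf2b, which encodes TFIIB, was lower in both older groups than in young livers. Polr2i, a small subunit of the polymerase linked to transcription fidelity, was lower at middle age. Nelfa, a NELF subunit, and Leo1, a subunit of the PAF elongation complex, passed only the test across all ages. The other 7 genes of DSIF, NELF and P-TEFb examined by name, Supt4a, Supt5, Nelfb, Nelfcd, Nelfe, Cdk9 and Ccnt1, passed no test between ages, although Supt4a passed the test across ages once aged replicate 1 was left out (adjusted p = 0.0476), a setting in which 13.2% of all genes passed it.

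The promoters of the genes called between a pair of ages are shown because these genes carry the differences reported below. RefSeq windows of 300 bases (GRCm38.p6) were matched by symbol for 45 of the 55 genes. The stretch shown for each gene is the part of its window that ends just before the first exon in GENCODE M21. Capitals mark every match, on either strand, to the TATA box TATAAA, the ETS core CCGGAAG, the GC box GGGCGG, the CCAAT box CCAAT, the YY1 core ATGGCGG or the NRF1 core TGCGCA. The Hexim1 stretch lies at chr11:103116075-103116230 on the plus strand, that of Polr2i at chr7:30231824-30231947 on the plus strand and that of Gtf2b at chr3:142764997-142765044 on the plus strand.
Hexim1: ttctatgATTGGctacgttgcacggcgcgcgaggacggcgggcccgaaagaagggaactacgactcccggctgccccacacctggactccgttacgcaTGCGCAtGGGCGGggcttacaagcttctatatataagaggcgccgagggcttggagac
Polr2i: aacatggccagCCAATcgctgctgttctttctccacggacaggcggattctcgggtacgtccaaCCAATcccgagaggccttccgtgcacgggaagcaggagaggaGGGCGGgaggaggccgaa
Gtf2b: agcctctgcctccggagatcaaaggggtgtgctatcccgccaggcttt

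Hexim1 holds a CCAAT box read on the minus strand, then an NRF1 core and a GC box 1 base apart. Only exact letters were searched, so its run tatatataag, which lacks the exact TATAAA, stays in lower case. Polr2i holds a pair of CCAAT boxes and a GC box. The short Gtf2b stretch holds none of these letters, and it ends 202 bases before the RefSeq start. The whole 300-base window of Gtf2b does hold a CCAAT box. Over the whole windows, a GC box was present in 35 of the 45 matched genes (77.8%). It was present in 38.2% of all 27025 genes with a window and 67.1% of the 9674 matched genes that were tested in these livers. The ETS core was present in 33.3% of the matched genes (9.93% of all genes with a window, 19.8% of tested genes) and the TATA box in 9 of 45 (15.7% and 9.39%). The CCAAT box was found in 35.6% (41.1% and 43.0%), the NRF1 core in 17.8% (8.79% and 15.6%) and the YY1 core in 13.3% (4.69% and 9.38%). These matches describe letters only.

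Libraries held between 8124312 and 10527159 gene counts, of which the 55 genes took 9285 to 12485 counts, or 0.108% to 0.128%. Normalised counts below are counts divided by the DESeq2 size factor of the library. Hepatocyte markers were all detected, with summed normalised counts of 802200 to 1034000, so the libraries matched their labelled tissue. Several libraries stood apart. Young replicate 2 had the largest mitochondrial share (19.2%, against 5.48% to 10.7% in the others) and spike-in share (10.6%), and young replicate 3 and middle-aged replicate 1 had the most genes detected (22284 and 19982, against 16361 to 17563). Of 39 spike-in transcripts with a mean of at least 50 counts, 10 took a higher share in every library of replicates 1 and 2 than in every library of replicates 3 and 4, and 19 a lower one, so the spike-in composition differed between these sets of libraries at every age. Erythroid markers also moved with age: 2 of 3 were called between aged and young livers, and their summed normalised counts ran from 16870 to 60070 in young, 9746 to 35990 in middle-aged and 7398 to 15830 in aged livers. In the same comparison 1 of 6 Kupffer cell markers and 1 of 5 biliary markers were called, and 0 of the hepatocyte, endothelial, stellate cell and lymphocyte markers. The part of these markers in the results below was not tested, and in whole tissue fewer cells of a type and less RNA per cell cannot be told apart.

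One gene could not be measured. Taf9, a TFIID subunit, had 2 counts in all libraries together, and 73.77% of its exonic length lies under the exons of Ak6 on the same strand. Across the table, protein-coding genes fully covered by exons of other genes on the opposite strand had no count in 34 of 35 cases (97.1%), and those fully covered on the same strand in 99 of 99, against 23.2% of genes without overlap. Genes lying wholly under other exons were thus mostly at 0, on either strand. Other members had a smaller part of their exons under genes of the opposite strand: Taf10 45.94% (to Ilk), Polr2i 26.82% (to Tbcb), Taf6 26.47%, Tbp 19.02%, Polr2c 18.13% and Polr2j 15.91%. The remaining 54 genes are described below.

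**Figure D1:**
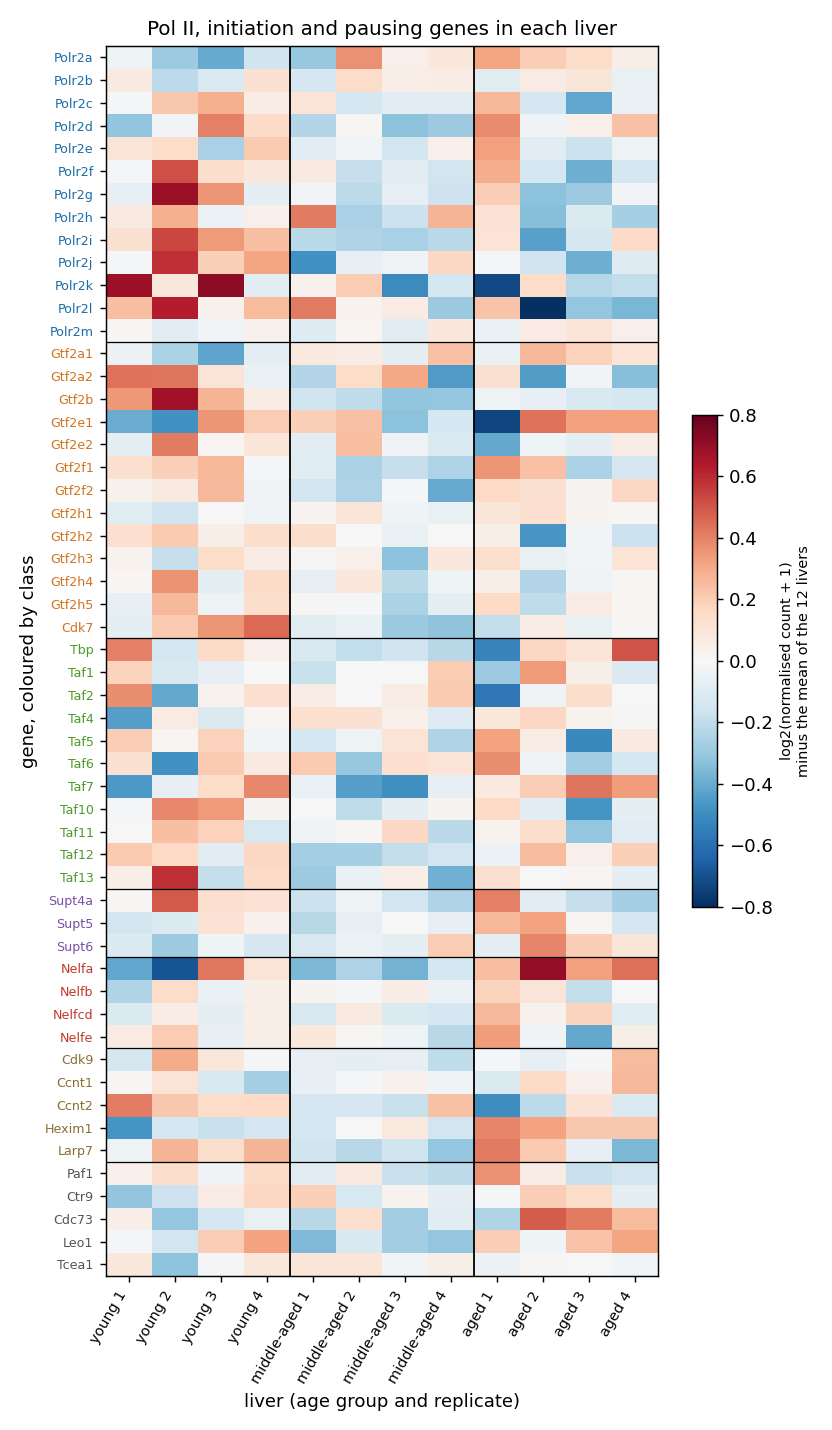
Each row is one of the 54 measured genes and each column one of the 12 livers, and the colour gives log2(normalised count + 1) minus the mean of that gene over all livers, with the colour scale ending at 0.8 in either direction. Young replicate 2 was the highest of the 12 livers in 15 genes, while middle-aged replicates 3 and 4 were the highest in 0 genes.

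Between aged and young livers, 2 of the 54 genes tested were called, Hexim1 higher and Gtf2b lower. Of all 13527 genes tested, 3.58% were called in this comparison (DESeq2 Wald test, Benjamini-Hochberg adjusted p under 0.05), so the share of members was close to the background. At an unadjusted p under 0.05, 12 members passed, 6 higher and 6 lower, beside 15.9% of all genes. The log2 fold change was negative in 31 of 54 members, with a median of -0.03, beside a median of 0.00 over all genes tested. All 4 aged livers exceeded all 4 young livers in 3 members (Polr2a, Gtf2h1 and Hexim1), beside 3.84% of genes, and lay below them in 2 (Gtf2b and Ccnt2), beside 3.69%.

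Between middle-aged and young livers, 2 members were called, Gtf2b and Polr2i, both lower, beside 6.41% of 11333 genes. The unadjusted p was under 0.05 in 10 members, 2 higher and 8 lower, beside 21.7% of genes. The log2 fold change was negative in 37 of 54 members (68.5%), with a median of -0.16, while 48.8% of genes tested were negative with a median of 0.01. Without young replicate 2 the median of the members was -0.099. The middle-aged livers all lay below the young ones in 6 members (Polr2i, Gtf2b, Gtf2f1, Taf12, Supt4a and Larp7), beside 7.96% of genes, and all above them in 0 members, beside 7.99%.

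From middle-aged to aged livers, DESeq2 called 0 members, beside 1.14% of 10236 genes. With edgeR and limma 0 members were also called, beside only 0.107% and 0.479% of 12099 genes. The unadjusted DESeq2 p was under 0.05 in 7 members, beside 9.94% of genes, and all 7 were higher in aged livers. The log2 fold change was negative in 15 of 54 members (27.8%), with a median of 0.08, beside 48.7% and a median of 0.01 (0.005) over all genes. Every aged liver exceeded every middle-aged liver in 7 members (Gtf2b, Gtf2f2, Taf7, Taf12, Nelfa, Hexim1 and Leo1), beside 3.26% of genes, and 0 members had the opposite separation, beside 3.28%. This comparison shares the middle-aged livers with the preceding one and the aged livers with the first.

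Across the 3 ages together (likelihood ratio test), 5 members were called, Hexim1, Gtf2b, Polr2i, Nelfa and Leo1, beside 6.96% of 12430 genes. Differences were small where they existed. The 95% interval of the log2 fold change lay within 2-fold in either direction for 52 of the 55 members between aged and young livers, and for 53 of 55 in each of the other comparisons. Among all genes tested the corresponding shares were 70.9%, 83.5% and 92.2%. Livers of one age also varied little in these genes, with a median coefficient of variation of 11.9%, against 15.2% over the 9023 tested genes within the members' range of mean counts.

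**Figure D2:**
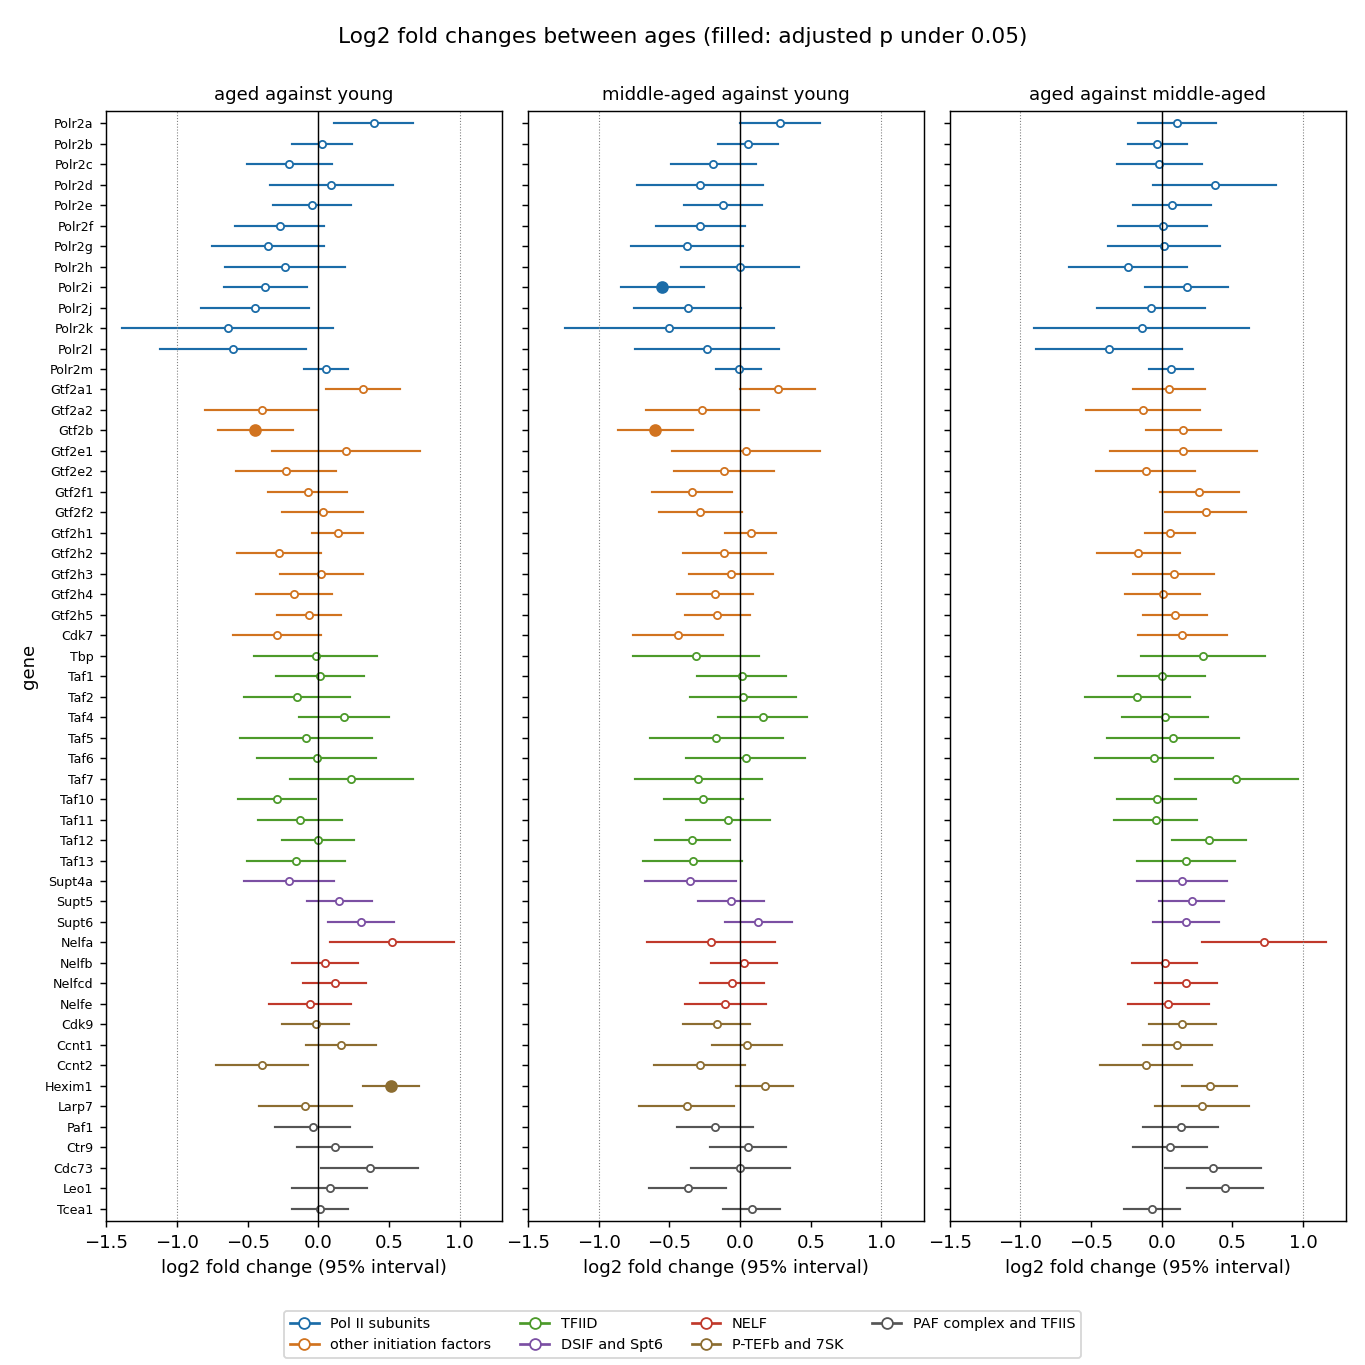
Points give the log2 fold change of each of the 54 measured genes in each comparison, lines the 95% interval from DESeq2 and colours the class, with filled points for an adjusted p under 0.05 and dotted lines at 2-fold. Filled points are Gtf2b and Hexim1 in the first panel and Polr2i and Gtf2b in the second, and the third panel has none.

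The polymerase itself comprised 12 subunits and Polr2m, a Pol II-associated protein. Polr2a, the largest subunit, which carries the C-terminal repeat domain, had normalised counts of 359, 302, 280 and 331 in young livers (replicates 1 to 4, the order used throughout), 298.9, 476.7, 379.7 and 391.9 in middle-aged and 460, 424, 408 and 381 in aged livers. Every aged liver was above every young one, while middle-aged replicate 1 lay among the young livers. The log2 fold change of aged over young was 0.39 (SE 0.14, DESeq2 adjusted p = 0.1). Besides spike-in scaling, only 1 alternative called Polr2a, the fit without middle-aged replicate 1 (adjusted p = 0.0443). That fit called 3.5% of all genes, and the liver left out belongs to neither of the ages compared.

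Polr2b, the second largest subunit and the other side of the active centre, gave 383, 315, 335 and 396 in young, 332, 402, 378 and 380 in middle-aged and 340, 381, 390 and 349 in aged livers. The groups overlapped throughout, and the log2 fold change of aged over young was 0.03 with a 95% interval of -0.18 to 0.24.

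Polr2i gave 196, 261, 229 and 213 in young livers, 155, 153, 150 and 155 in middle-aged livers and 195, 133, 164 and 200 in aged livers. The middle-aged livers were closely alike and all below the young ones, and the aged livers spread over both. Its log2 fold change of middle-aged over young was -0.55 (SE 0.15, DESeq2 adjusted p = 0.00916), and that of aged over young -0.37 (adjusted p = 0.148). Leaving out young replicate 2, the highest library, gave -0.47 with an adjusted p of 0.0724, and leaving out young replicate 3 gave -0.54 with 0.0514. The adjusted p ranged from 0.00183 to 0.609 over 27 alternatives, 20 of which called the gene, 1 of them (spike-in scaling) in the opposite direction. Within replicates 1 and 2 the value was -0.57 and within replicates 3 and 4 it was -0.54, neither called. Tbcb, the gene whose exons overlap those of Polr2i at chr7:30231948-30233390, was not called in either comparison with young livers (log2 fold changes of -0.22 in aged and -0.32 in middle-aged livers).

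Polr2k, a small subunit shared with Pol I and Pol III, had the largest fold change of the class between aged and young livers and the lowest counts, 25.5, 16.6, 26.1 and 14.6 in young, 15.9, 18.0, 10.6 and 14.0 in middle-aged and 9.0, 17.3, 13.1 and 13.4 in aged livers. Its groups overlapped, and its log2 fold change of -0.64 (SE 0.38) was not called. The 5 subunits shared with the other polymerases (Polr2e, Polr2f, Polr2h, Polr2k and Polr2l) all had negative values between aged and young livers, from -0.64 to -0.04, and 0 of the 5 were called. All 5 are short, with 0.624 to 2.67 kb of exon. The shorter members of the whole list also ran lower in this comparison (median -0.09, beside 0.01 in the longer ones). The part of length in the values of these subunits was not tested. Over the whole class of 13 genes, 4 were higher and 9 lower in aged livers with a median of -0.23, and 10 were lower, 2 higher and 1 level at middle age. Without aged replicate 1, Polr2f and Polr2l were called lower in aged than in young livers.

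Among the initiation factors, Gtf2b stood out. TFIIB bridges the TATA-binding protein and the polymerase. The gene spans chr3:142765045-142783606 on the plus strand, in 7 merged exons of 4.589 kb. Its normalised counts were 263, 330, 250 and 216 in young livers, 185, 180, 166 and 166 in middle-aged livers and 201, 198, 190 and 188 in aged livers. Every older liver lay below every young liver, and the aged livers all lay above the middle-aged ones. The gene fell between young and middle age by 0.60 on the log2 scale (SE 0.14, DESeq2 adjusted p = 0.000892), and between young and aged livers by 0.44 (SE 0.13, adjusted p = 0.032).

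The middle-aged value was called in 25 of 27 alternatives, 1 of them (spike-in scaling) in the opposite direction, with an adjusted p of 0.00946 without young replicate 2, the highest library (range 8.43e-05 to 0.369). The aged value was called in 8 of 27 (adjusted p from 0.00468 to 0.756). It was not called by edgeR (adjusted p = 0.082) or without young replicate 2 (log2 fold change -0.32, adjusted p = 0.19). Within replicates 1 and 2, Gtf2b was lower by 0.57 between young and aged livers (log2 fold change -0.57), and within replicates 3 and 4 the log2 fold change was -0.30, neither called. Scaling to the spike-ins reversed its direction, as described with the other scaling effects in the closing section.

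The other 12 initiation factors outside TFIID passed no test in any comparison. Between aged and young livers their log2 fold changes ran from -0.40 in Gtf2a2 to 0.32 in Gtf2a1, the subunits of TFIIA, so that this pair of partners differed in sign. The TFIIF genes Gtf2f1 and Gtf2f2 had values of -0.34 and -0.28 at middle age, with adjusted p of 0.132 and 0.256. Gtf2f1 was called when only those ages were fitted (0.0308), a setting that called 11.2% of all genes. Cdk7, the TFIIH kinase that phosphorylates the polymerase's C-terminal domain, had -0.44 at middle age (adjusted p = 0.0758). It was called there with limma (beside 5.8% of all genes) and without young replicate 1 (beside 8.71%). These genes were chosen after their values were seen. The other TFIIH subunits measured (Gtf2h1 to Gtf2h5) lay between -0.28 and 0.14 in aged livers.

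TFIID was measured through 11 genes, with none called. Tbp, the TATA-binding protein, gave 93.4, 63.7, 78.2 and 72.2 in young, 64.5, 61.1, 62.7 and 60.1 in middle-aged and 48.2, 79.0, 76.0 and 100.1 in aged livers. The aged livers spanned the values of both other groups, and the log2 fold change of aged over young was -0.02 with an interval of -0.46 to 0.42. Taf12, a histone-fold subunit that also belongs to the SAGA coactivator, gave 162, 157, 132 and 157 in young, 116, 117, 123 and 126 in middle-aged and 136, 168, 144 and 160.0 in aged livers. All middle-aged livers were below all others, with log2 fold changes of -0.34 against young (adjusted p = 0.106) and 0.33 for aged over middle-aged (adjusted p = 0.269). Taf10, the most abundant TAF by counts, had -0.29 in aged livers (adjusted p = 0.271), and was called without aged replicate 1.

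DSIF and the elongation factor Spt6 were not called with all libraries in the fit. Supt4a, the smaller DSIF subunit, gave 244, 341, 264 and 263 in young, 215, 235, 218 and 204 in middle-aged and 321, 228, 213 and 201 in aged livers. Young replicate 2 and aged replicate 1 were the highest libraries, and the middle-aged livers were all below the young ones. The log2 fold changes were -0.21 for aged over young (interval -0.53 to 0.11) and -0.35 for middle-aged over young (SE 0.16, adjusted p = 0.184).

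Supt5, the larger DSIF subunit and a P-TEFb substrate, gave 462, 474, 553 and 522 in young, 438, 488, 511 and 488 in middle-aged and 613, 639.6, 514 and 465 in aged livers. Aged replicates 1 and 2 were above every other library and aged replicates 3 and 4 were not, so the groups overlapped. Its log2 fold change of aged over young was 0.15 with an interval of -0.08 to 0.38, and its direction turned between the sets of libraries, with 0.43 within replicates 1 and 2 and -0.14 within replicates 3 and 4, neither called. Supt6, a histone chaperone that travels with the elongating polymerase, gave 412, 364, 434 and 404 in young, 406, 429, 421 and 511 in middle-aged and 423, 583, 510.0 and 475 in aged livers. Its log2 fold change of aged over young was 0.30 (SE 0.12, adjusted p = 0.151), and it was called without aged replicate 1.

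NELF is a complex of 4 subunits that stabilises the paused polymerase. Nelfa gave 67.9, 56.0, 122 and 97.6 in young livers, 70.5, 76.3, 69.8 and 82.2 in middle-aged livers and 107, 148, 115 and 123 in aged livers. The aged livers all exceeded the middle-aged ones, whereas the young livers spread from below the middle-aged range to within the aged range. Across the 3 ages the DESeq2 adjusted p was 0.0476. The log2 fold change was 0.72 for aged over middle-aged livers (SE 0.22, adjusted p = 0.078), 0.52 for aged over young (adjusted p = 0.197) and -0.21 for middle-aged over young (adjusted p = 0.662). Without young replicate 3 the value of aged over young was 0.73 and was called (adjusted p = 0.0408), beside 2.41% of all genes. It was 1.05 within replicates 1 and 2 and 0.11 within replicates 3 and 4, neither called. The test across ages was passed in 10 of 26 alternatives (adjusted p from 0.00329 to 0.677), including spike-in scaling, where 70.8% of all genes passed.

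The other NELF subunits passed no test. Nelfb gave 206, 270.0, 235 and 252 in young, 247, 242, 254 and 237 in middle-aged and 276, 262, 213 and 244 in aged livers. Nelfcd gave 240, 271, 248 and 270 in young, 238, 274, 240 and 238 in middle-aged and 312, 267, 295 and 243 in aged livers. Nelfe, which binds RNA, gave 382, 420, 348 and 377 in young, 387, 367, 355 and 313 in middle-aged and 462, 356, 274 and 377 in aged livers. All of these groups overlapped. The log2 fold changes of aged over young were 0.05 in Nelfb (interval -0.19 to 0.28), 0.12 in Nelfcd (-0.10 to 0.34) and -0.06 in Nelfe (-0.34 to 0.23), so a change of 1.5-fold lay outside each interval.

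**Figure D3:**
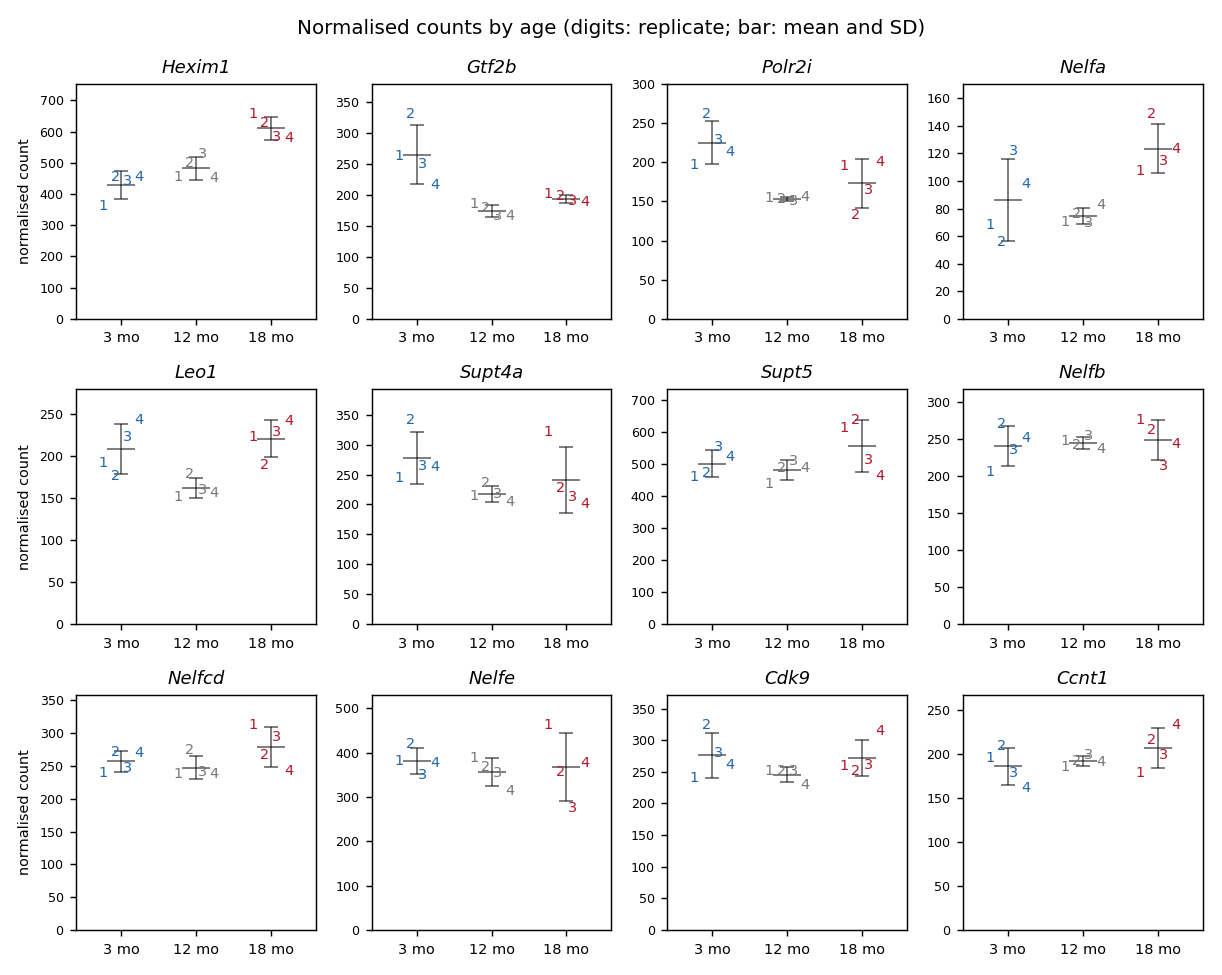
Panels show the normalised counts of the 5 called genes and of the other 7 named pausing factors, with a digit for each liver (its replicate number) and the mean and SD of the 4 livers of each age. The aged livers of Hexim1 lie between 581 and 655, above all livers of the other ages, while all panels from Supt4a to Ccnt1 overlap between aged and young livers.

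P-TEFb and its 7SK inhibitor held the member with the lowest adjusted p, Hexim1. Hexim1 binds 7SK RNA and blocks the kinase activity of P-TEFb. It is a gene of a single exon at chr11:103116231-103119725 on the plus strand, and none of its exonic length is shared with another gene. Its normalised counts were 361, 453, 442 and 456 in young livers, 454, 499, 527 and 450.0 in middle-aged livers and 655, 626, 581 and 581 in aged livers. The aged livers were above every other liver, and the middle-aged range overlapped the upper young values. Hexim1 rose from young to aged livers by 0.51 on the log2 scale (SE 0.10, DESeq2 adjusted p = 9.1e-05). The difference of aged over middle-aged livers was 0.34 (SE 0.10, adjusted p = 0.052) and that of middle-aged over young 0.17 (SE 0.10, adjusted p = 0.311).

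The aged value of Hexim1 was called in 24 of 27 alternatives (adjusted p from 9.97e-06 to 0.339), including spike-in scaling, where 64.2% of all genes were called. It was 0.44 without young replicate 1, the lowest library (adjusted p = 0.00132), 0.54 without young replicate 2 (0.000408) and 0.48 without aged replicate 1, the highest library (0.000572). Within replicates 1 and 2 it was 0.66 and within replicates 3 and 4 it was 0.37, with adjusted p of 0.123 and 0.339.

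The kinase and its cyclins were not called. Cdk9 gave 240, 324, 280 and 261 in young, 251, 251, 252 and 229 in middle-aged and 260, 251, 260 and 314 in aged livers, with a log2 fold change of aged over young of -0.02 (interval -0.26 to 0.22). Ccnt1, its main cyclin partner, gave 195, 209, 178 and 161 in young, 185, 192, 199 and 190 in middle-aged and 179, 216, 199 and 232 in aged livers, with 0.16 (interval -0.09 to 0.41). Both genes overlapped between all ages. Over 26 alternatives other than spike-in scaling the sign of these small values was not fixed, with ranges of -0.13 to 0.09 in Cdk9, -0.03 to 0.35 in Ccnt1, -0.09 to 0.18 in Nelfb and -0.18 to 0.06 in Nelfe. Ccnt2, the alternative cyclin, chosen after its values were seen, was lower in every aged liver (88.3 to 136) than in any young liver (139 to 167). Its log2 fold change was -0.40 (SE 0.17, adjusted p = 0.176). With offsets for gene length and GC content it was called, beside 4.21% of all genes.

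Larp7, which protects 7SK RNA, gave 148, 183, 167 and 184 in young, 136, 130, 136 and 122 in middle-aged and 203, 175, 145 and 118 in aged livers. The middle-aged livers were all below the young ones (log2 fold change -0.38, adjusted p = 0.167) and the aged livers spanned both. Its log2 fold change of aged over young was -0.09, beside 0.51 in Hexim1, and the difference between these genes was not tested.

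Of the PAF complex, which travels with the elongating polymerase and takes part in pause release, Leo1 passed the test across ages (DESeq2 adjusted p = 0.039). Leo1 gave 192, 176, 223 and 243 in young, 152, 179, 160 and 156 in middle-aged and 223, 190, 228 and 242 in aged livers. The middle-aged livers were the lowest, though one of them exceeded young replicate 2. Its log2 fold changes were -0.37 for middle-aged over young (SE 0.14, adjusted p = 0.0813), 0.45 for aged over middle-aged (SE 0.14, adjusted p = 0.0677) and 0.08 for aged over young (adjusted p = 0.854). The test across ages was passed in 11 of 26 alternatives (adjusted p from 0.0136 to 0.9999), including spike-in scaling, where 70.8% of all genes passed. It was not passed without young replicate 3 (0.0991) or middle-aged replicate 1 (0.172).

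Cdc73, the subunit known as parafibromin, gave 162, 126, 142 and 150 in young, 134, 172, 129 and 147 in middle-aged and 133, 220, 209 and 187 in aged livers. Aged replicate 1 lay among the young livers and the other aged livers above them. The log2 fold change of aged over young was 0.36 (SE 0.18, adjusted p = 0.276), and the gene was called without aged replicate 1. Paf1, Ctr9 and Tcea1, the last encoding TFIIS, which restarts backtracked polymerases, had values between -0.04 and 0.12 in aged livers.

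Aged replicate 1 weighed on several of these values. It was the highest aged liver in 27 of 54 members and the lowest in 18. Without it 7 members were called between aged and young livers, Polr2f, Polr2l, Gtf2b and Taf10 lower and Supt6, Hexim1 and Cdc73 higher, while the share of all genes called was 10.4%. Across the 3 ages 8 members were then called, beside 13.2% of all genes.

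Levels differed between the genes by far more than between the ages. Per kb of exon, the mean normalised count over the 12 livers ran from 5.27 in Tbp to 261 in Supt4a, with a median of 44.4, against 28.4 over 12425 tested genes. Supt4a, Polr2m, Nelfe, Gtf2f1, Polr2i and Hexim1 led. NELF subunits had unequal levels per kb, with 71.3 in Nelfb, 90.6 in Nelfcd and 177 in Nelfe, and Nelfa was the lowest of them. The partners of DSIF also differed, with 261 per kb in Supt4a and 89.2 in Supt5, as did Hexim1 (145 per kb) and Cdk9 (57.3 per kb). TAFs and Tbp were low as a class, with a median of 19.0 per kb in 11 genes, against 77.2 in the 13 Pol II subunit genes. Annotated exon length affects these levels. It includes the exon parts under other genes, such as 26.82% in Polr2i and 45.94% in Taf10, and whether counts were lost there was not tested. Over the principal transcript alone, Gtf2b went from 46.0 to 145 per kb, Cdk9 from 57.3 to 152, Polr2f from 113 to 330.0 and Tbp from 5.27 to 5.60.

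**Figure D4:**
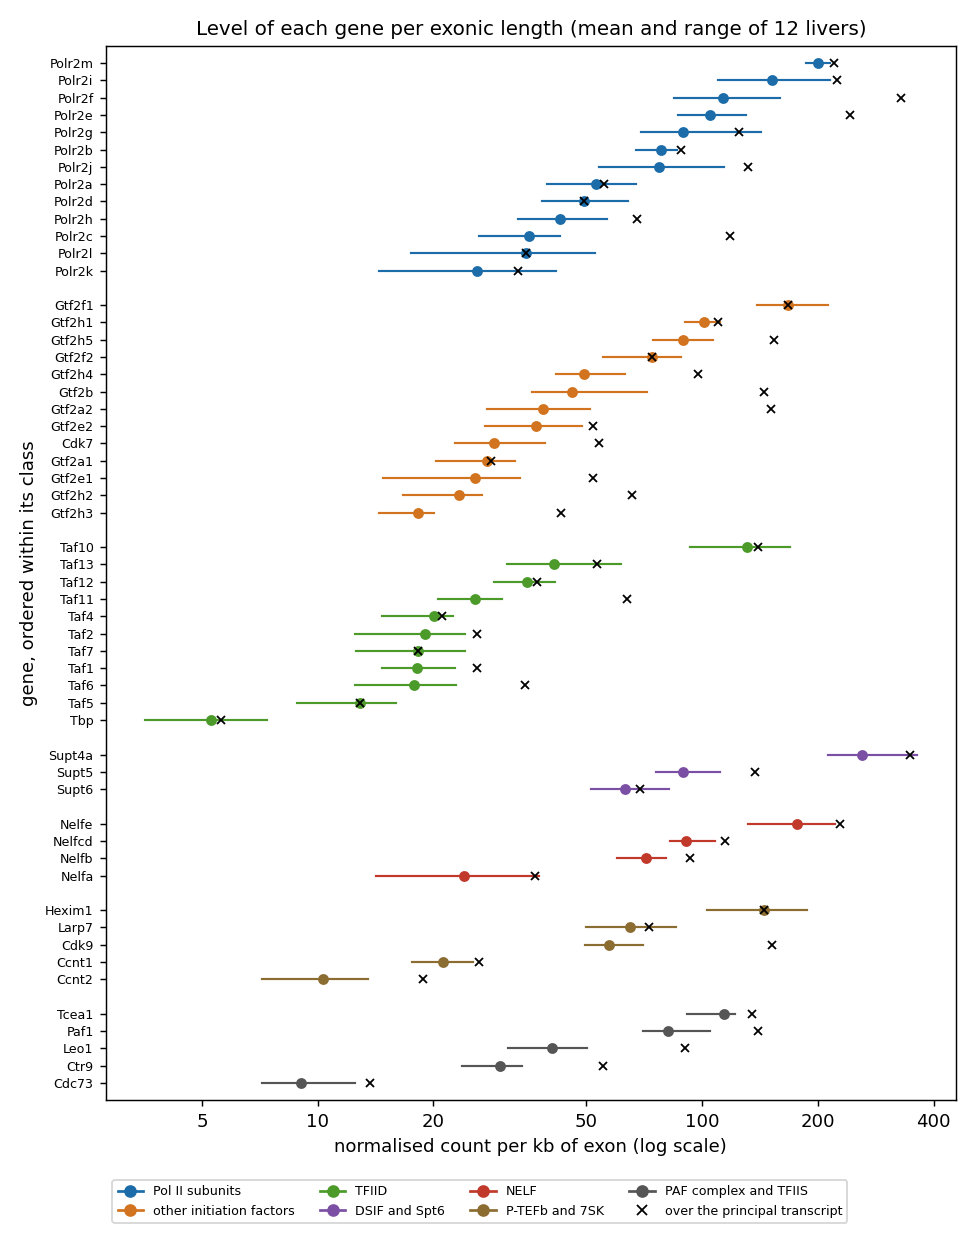
Points give the mean and lines the range over 12 livers of the normalised count per kb of annotated exon, on a log axis, ordered within each class, and crosses give the mean per kb of the principal transcript. Supt4a is the highest at 261 and Tbp the lowest at 5.27, and the order within a class changes where the cross lies far from the point.

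The Spearman correlation across the 54 genes between exonic length and log2 fold change was 0.40 for aged over young and 0.46 for middle-aged over young, and 0.05 for aged over middle-aged. Over all genes tested it was 0.16, 0.32 and -0.19. These are correlations across genes of the same libraries, which are not independent replicates. The 27 genes with up to 3.78 kb of exon had a median log2 fold change of -0.23 at middle age, with 22 negative, and the 27 longer ones -0.06, with 15 negative. Between aged and young livers the medians were -0.09 and 0.01. With offsets for length and GC content the middle-aged medians became -0.13 and -0.13, and the correlation 0.05. With the same offsets the correlation for aged over young was 0.175, lower than without them, and that for aged over middle-aged was also 0.175, higher than without them.

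The short genes were also those that stood high in particular libraries. In young replicate 2 the 27 shorter members lay at a median of 0.19 above their mean over all livers on the log2 scale, and the longer ones at -0.12. Aged replicate 1 had 0.18 and -0.01. Within both libraries the deviation fell with exonic length (Spearman -0.49 and -0.44 across 54 genes), and in aged replicate 3 it rose (0.50).

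**Figure D5:**
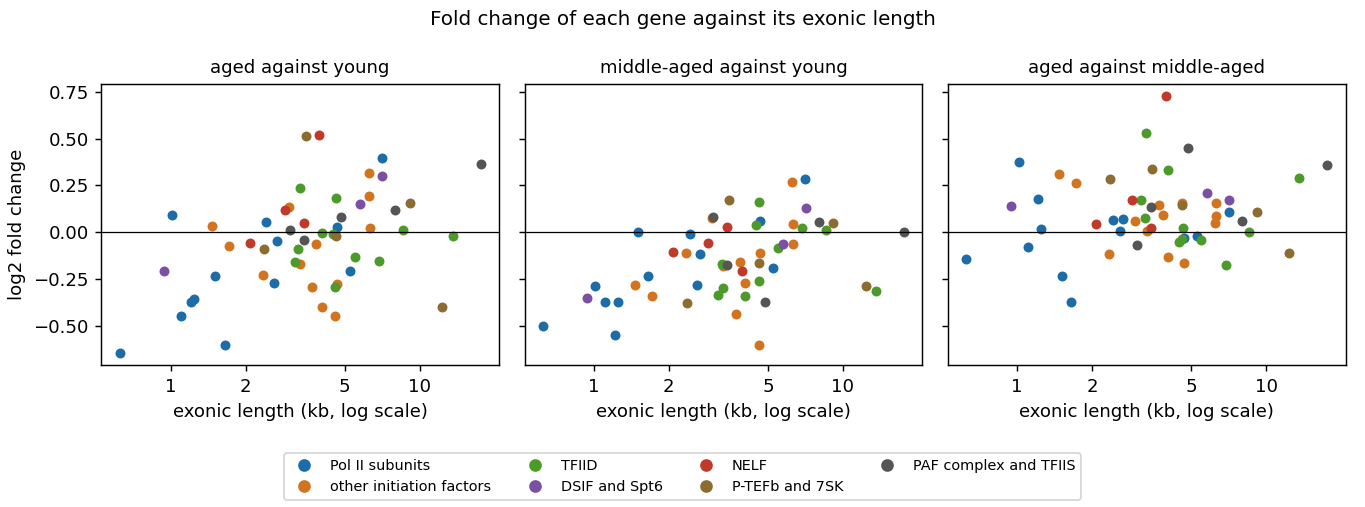
Each point is one of the 54 measured genes, coloured by class, with its exonic length in kb on a log axis and its log2 fold change on the vertical axis. The Spearman correlation is 0.40 in the first panel, 0.46 in the second and 0.05 in the third.

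Further lists of transcription genes were examined in the same fit. None of their genes was called between aged and young livers or between aged and middle-aged livers. In the comparison of middle-aged and young livers, 1 of 20 tested genes of other elongation factors and Pol II phosphatases was called, the elongation factor Ell (log2 fold change 0.44, adjusted p = 0.0393). Of 19 genes of Pol I and Pol III, Polr3b was higher (0.36, adjusted p = 0.0466) and Twistnb lower (-0.42, adjusted p = 0.0483). These counts stand beside 6.41% of all genes called in that comparison. No gene was called among 31 of Mediator, 14 of Integrator or 13 of the remaining subunits of the complexes above. The medians at middle age were -0.17 for Pol I and Pol III, -0.05 for Mediator, -0.06 for Integrator, -0.11 for the remaining subunits and 0.06 for the elongation factors.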

How the data were processed

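Total RNA from livers was sequenced as stranded libraries read from a single end, per the study's methods. The authors deposited one table of raw counts per gene, whole numbers without normalisation, for 12 libraries. The submitters' processing notes list STAR 2.5.2b, SAMtools 1.9, featureCounts, R 3.6.3, edgeR 3.28.1 and DESeq2 1.26.0 and the builds mm10 and GRCm38, without saying which step each served. The study's text credits a public atlas for expression at 3 ages, and its design text gives fewer replicates than the 4 libraries per age, so the source of these libraries is uncertain. The table also holds 92 spike-in transcripts that the methods do not mention, and these were left out of gene tests. Columns were matched to samples by title.

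The 28449 genes with a count were fitted with DESeq2 1.42.0 in R 4.3.3, all 12 libraries together using DESeq2's own size factors and default filtering and no term besides age. Pairs of ages were compared by the Wald test and all ages by the likelihood ratio test, with Benjamini-Hochberg adjustment over all genes and a threshold of 0.05. Of 53465 identifiers, 53360 were found in GENCODE M21 (GRCm38), which gave symbols, positions and exon unions. The scripts were tested on simulated counts. No libraries of one age were copies of each other. Alternatives were edgeR 4.0.16, limma 3.58.1, TMM factors, spike-in scaling, a minimum of 10 counts in 4 libraries, no independent filtering, fits of only the ages compared, a replicate block, a term for the spike-in set, fits within each set, length and GC offsets (lowess span 0.3), and leaving out libraries; edgeR with the block and filtering at 0.05 were added after seeing the data.

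The members and the lists were chosen with earlier results of these data known. Values in every liver were given for members called in any test, the 8 pausing factors, Polr2a, Polr2b, Tbp, and the member of each class with the largest log2 fold change of aged over young and of middle-aged over young. In TFIID the first of these was Taf9, which was not measured. Other lists' genes were named only when called. Other members named were chosen after their values were seen.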

Additional observations from a re-analysis of the deposited data

Results flagged for a closer look

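Over the named genes, 60 sets of 4 livers of one age were examined for a liver far from the other three, and 4 were found, where chance alone gives about 1 in 20, or 3. In middle-aged replicate 4, Cdk9 had a normalised count of 229 against 251 to 252 in the other livers (gap over range 0.948, above the 95% critical value of Dixon's test). In aged replicate 4, Cdk9 stood at 314 against 251 to 260 (0.856). In young replicate 1, Hexim1 stood at 361 against 442 to 456 (0.854), and without this liver the log2 fold change of Hexim1 between aged and young livers was 0.44 (DESeq2 adjusted p = 0.00132). In middle-aged replicate 2, Nelfcd stood at 274 against 238 to 240 (0.926). Spike-in transcripts were left out of the gene tests. They served only for the spike-in scaling alternative and for the comparison of spike-in shares between sets of libraries. In the library where they were scarcest, spike-in transcripts made up 1.59% of the counts.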

How the results depend on the processing

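Scaling to the spike-ins moved the median log2 fold change of all genes by 1.25 (aged over young) and 1.57 (middle-aged over young). It raised the members called to 47 and 53 of 55 (53 across ages), beside 64.2%, 71.5% and 70.8% of all genes tested. The members' median became 1.195, 1.42 and -0.22 in the 3 comparisons, below each all-gene shift in the comparisons with young livers. Gtf2b then reversed to 0.86 (aged) and 1.02 (middle-aged) and Polr2i to 1.06, all under the all-gene shift, and Hexim1 became 1.80, above it. The members called between aged and young livers numbered 1 with edgeR, limma, no independent filtering, only the ages compared, and without young replicate 3 with middle-aged replicate 1. The shares of all genes called in these settings were 1.42%, 2.94%, 1.13%, 2.04% and 2.21%. Between middle-aged and young livers limma called 4 (beside 5.8% of all genes), and leaving out those libraries 1 (beside 2.14%). Between aged and middle-aged livers 1 was called when only those ages were fitted (beside 1.28%) and 2 with length and GC offsets (beside 1.67%). Across ages edgeR called 2 (beside 1.93%). No independent filtering (beside 2.15%) and the pair of libraries left out (beside 3.46%) gave 3 each. Within replicates 1 and 2, and within replicates 3 and 4, 0 members were called for aged or middle-aged over young or across ages. The shares of all genes called were then 1.19%, 2.07% and 2% in replicates 1 and 2. They were 4.36%, 3.62% and 5.1% in replicates 3 and 4. The median of the members within replicates 1 and 2 was 0.03 (0.028) and -0.10 (-0.105). Each of these fits had 2 livers per age.

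Same-numbered livers did not deviate together (correlations from -0.303 to 0.159, with 1 of 12 libraries closest to its own number). Whether same-numbered livers were handled together was not tested. With the replicate block 1, 1 and 2 members were called (aged over young, middle-aged over young, across ages), beside 2.85%, 3.23% and 3.47% of all genes. With edgeR and the block 0, 1 and 0 were called, beside 0.595%, 0.984% and 0.76%. Leaving out 1 liver in turn gave 1 to 7 members called for aged over young, 1 to 3 for middle-aged over young, 0 to 1 for aged over middle-aged and 2 to 8 across ages. In the same order, the share of all genes called ran from 1.77% to 10.4%, 3.08% to 9.73%, 0.321% to 1.85% and 4.07% to 13.2%. The medians of the members were -0.069 to 0.011, -0.179 to -0.099 (the last without young replicate 2) and 0.043 to 0.103. Why the counts of members called moved was not tested beyond the values given. Other alternatives left each count within 1.5 times. Polr2k had 9.0 to 26.1 normalised counts per library and an SE of 0.38 for aged over young.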
